A study of Mus musculus with 9 samples.

Results

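Wnt receptors, secreted Wnt inhibitors and feedback targets were followed in osteosarcoma (OS) tumors of genetically engineered mouse models (GEMMs). The 10 genes, *Wnt5a*, *Fzd1*, *Lrp5*, *Lrp6*, *Dkk1*, *Sfrp1*, *Sfrp2*, *Axin2*, *Lef1* and *Tcf7*, were chosen by symbol from a table of 55367 genes for which the authors deposited raw read counts from whole-tumor RNA-Seq. All 10 were found, and all 10 had enough counts to be tested. The table holds 4 tumors of the p53-driven GEMM, whose genotype is given as Col2.3-Cre/TrpP53fl/+, in columns F187, F325, F331 and F368. Its 5 other columns, M351, M408, M624, M664 and M9, are tumors of the *Myc*-knockin GEMM, given as Cre-Lox-Stop-Lox with (LSL)-c-MycT58A and p53fl/+. Both groups thus carry Cre under Col2.3, an osteoblast-specific promoter, and 1 floxed *Trp53* allele, and the *Myc*-knockin tumors add a Cre-activated *Myc* allele with the T58A change. The tumors arose spontaneously, the labels give no treatment and no age for any tumor, and each tumor is called by its column name. The study describes an earlier time to sacrifice in the *Myc*-knockin model, so age and genotype cannot be told apart. The labels do not pair columns with samples. For M351, M664 and M9, only the letter M of the name gives the genotype. Nothing in the labels ties each tumor to its own mouse, so the p values measure the spread between these tumors.

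Wnt proteins are secreted ligands that bind a Frizzled receptor and, in the canonical branch, the co-receptors LRP5 or LRP6. Binding halts the destruction complex built on Axin and APC, so that β-catenin accumulates and joins TCF/LEF factors on DNA. Targets such as *Axin2*, *Lef1*, *Tcf7* and *Dkk1* feed back on the pathway, and signaling through LRP5 and LRP6 is a main driver of bone formation by osteoblasts. *Wnt5a* belongs to the ligands that mostly signal without β-catenin, through receptors of the ROR and RYK type.

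The libraries were not alike. Total counts ran from 2716322 to 17073285, so that 3 counts, taken as the floor, corresponded to 0.114 to 2.39 CPM. CPM stands throughout for counts relative to the library size, scaled by edgeR's TMM factors. A set of 11 genes made of satellite repeats took 23.2% to 81.0% of the counts in F187, M351, M408 and M9, and at most 0.0242% in the other 5 tumors. In the same libraries part of the counts is expected from genomic background, estimated from chemosensory receptor genes, and this share exceeded 20% for 8 of the 10 genes in M9, 3 in F187 and 2 in M351. M624 and M664, the deepest libraries, held 3.47 and 6.35 CPM of *Rn7sk*, a nonpolyadenylated small nuclear RNA, against at least 6545 CPM in the other 7. The study describes oligo-dT enrichment for its libraries, and the cause of this difference was not tested. *Myc* itself was at 144 to 1045 CPM in the *Myc*-knockin tumors and at 43.5 to 67.1 CPM in the p53-driven tumors. The osteoblast markers *Col1a1* and *Col1a2* were at 2098 and 1164 CPM in their lowest tumors, but *Bglap*, the osteocalcin gene of mature osteoblasts, was at 0 to 3.98 CPM in the *Myc*-knockin tumors and at 17.7 to 83.3 CPM in the p53-driven tumors.

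None of the 10 genes was called as different between the genotypes. With calls set at adjusted p below 0.05 plus a change of more than 1.5-fold, edgeR called 809 of 15365 genes tested (5.27%, made up of 2.26% with a rise and 3.00% with a fall in the *Myc*-knockin tumors). DESeq2, which called 17.2% of all genes, and limma-voom, which called 10.8%, also called 0 of the 10 (DESeq2 gave no p for *Lrp6*). At an unadjusted p under 0.05 edgeR counted 1 of the 10 genes, *Wnt5a*, against 26.8% of all genes. In none of the 10 genes were the groups fully apart, whereas 13.0% of all genes had groups that did not overlap (5.41% with the *Myc*-knockin tumors higher, 7.54% lower). The median log2 fold change, *Myc*-knockin over p53-driven, was 0.28 over the 10 genes and 0.14 over all genes tested. What the genes showed instead was a wide spread from tumor to tumor, as the plot of their levels in each tumor shows, so their values are given by role from ligand to target.

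**Figure D1:**
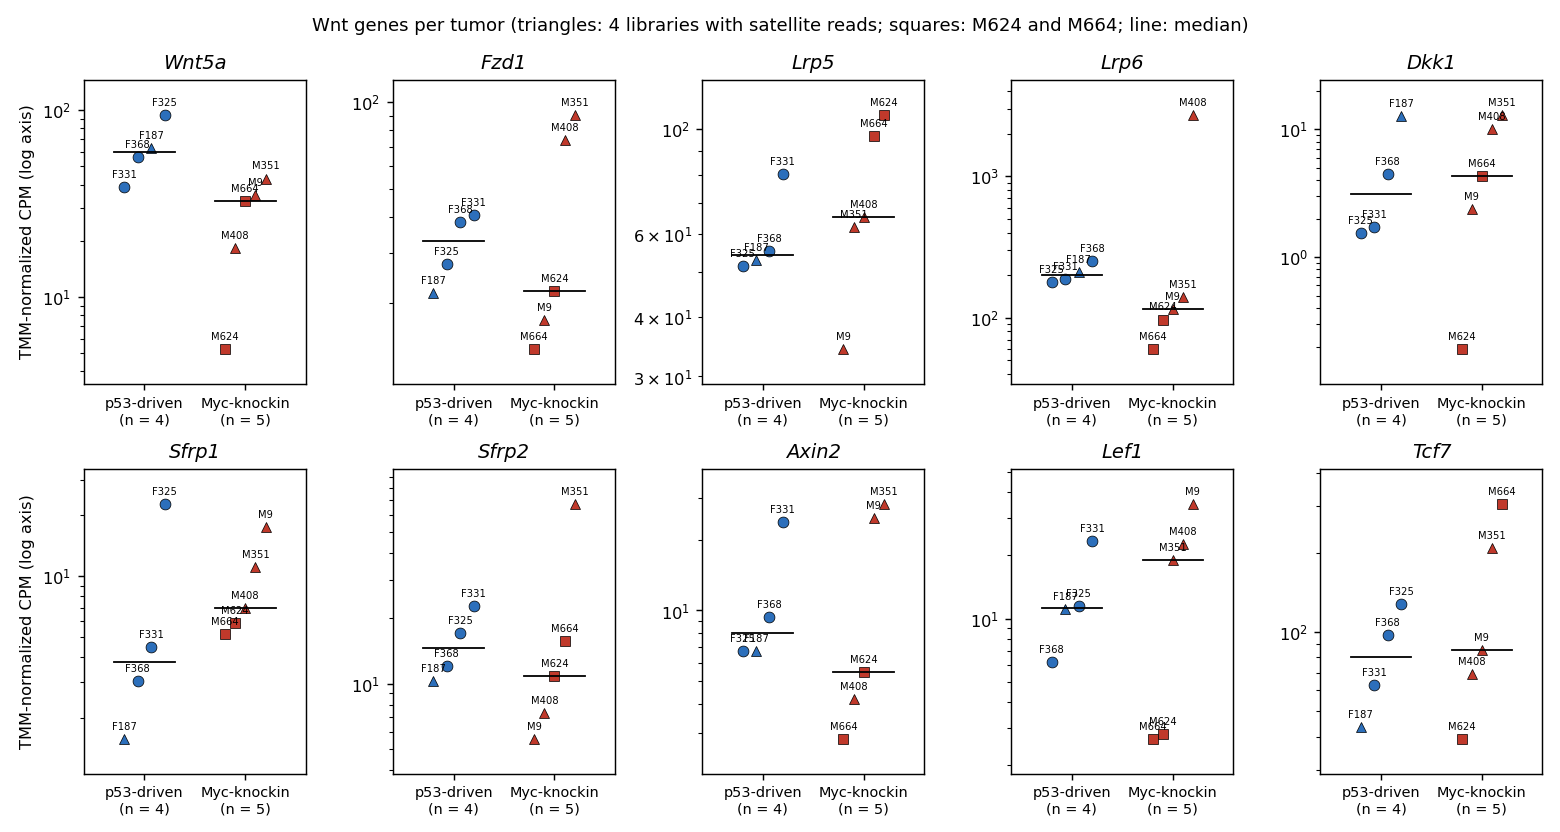
TMM-normalized CPM of the 10 Wnt genes in each tumor, 1 panel per gene, each with its own log axis. The p53-driven tumors are blue and *Myc*-knockin tumors red, with the group median as a line. Triangles mark the 4 libraries with satellite reads and squares M624 and M664. The groups overlap in every panel, and *Lrp6* in M408 stands at 2719 CPM against 253 or less in the other 8 tumors.

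*Wnt5a* (ENSMUSG00000021994, mm10 chr14:28504750-28527448) had the lowest log2 fold change of the 10 genes. In the p53-driven tumors it was at 62.8 CPM in F187, 94.4 in F325, 38.8 in F331 and 56.3 in F368. In the *Myc*-knockin tumors it was at 43.1 CPM in M351, 18.3 in M408, 35.1 in M9, 5.26 in M624 and 32.8 in M664. All *Myc*-knockin tumors but M351 lay below the lowest p53-driven tumor, F331, and M624 lay farthest down. The means were 26.9 ± 15.04 CPM (SD, n = 5) and 63.0 ± 23.2 CPM (SD, n = 4), and the log2 fold change was -1.26 (SE 0.51, 95% interval -2.46 to -0.05, edgeR adjusted p = 0.144). Its direction was the same in all 19 alternative fits, from -1.69 to -0.92, and none called it. Markers of some cell types moved the same way, osteoblast markers among them. No tested marker was called in the chondrocyte, osteocyte, T cell, endothelial and skeletal muscle lists. Their median log2 fold changes were 0.23, 0.0037, 1.07, -0.59 and -0.57. Of 8 fibroblast and stromal markers, 4 (*Dcn*, *Lum*, *Fap* and *Postn*) were called lower in the *Myc*-knockin tumors, and the summed level of the list was 368.1 to 821 CPM there and 1878 to 6039 CPM in the p53-driven tumors. Of 10 osteoblast markers, 2 (*Bglap* and *Bglap2*) were called lower, with sums of 3611 to 41304 CPM against 65144 to 141179 CPM. Of 7 osteoclast markers, 5 were called lower, with sums of 116 to 2548 CPM against 2595 to 13619 CPM, and of 7 macrophage markers 3, with sums of 199.97 to 679 CPM against 679 to 1228 CPM. The part of these cells in the *Wnt5a* level was not tested, and in whole tumors fewer cells of a type and less RNA per cell cannot be told apart.

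*Fzd1* (ENSMUSG00000044674, chr5:4753839-4758035), a Frizzled receptor with a single-exon gene, split the *Myc*-knockin tumors. It was at 90.5 CPM in M351 and 74.0 in M408, and at 17.5 in M9, 22.1 in M624 and 13.8 in M664. In the p53-driven tumors it was at 21.7 CPM in F187, 27.4 in F325, 40.5 in F331 and 38.4 in F368. So the *Myc*-knockin group held both the 2 highest and the 2 lowest tumors, while M624 fell among the p53-driven tumors. On the log2 scale the fold change was 0.43 (SE 0.56, edgeR adjusted p = 0.654).

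*Lrp5* (ENSMUSG00000024913, chr19:3584828-3686564) was the steadiest of the 10 genes, with a coefficient of variation of 34.7% over the 9 tumors. The p53-driven tumors had 52.9 CPM in F187, 51.4 in F325, 80.4 in F331 and 55.3 in F368. The *Myc*-knockin tumors had 62.2 CPM in M351, 65.4 in M408, 34.3 in M9, 107 in M624 and 96.6 in M664. M624 and M664 were the highest of all tumors and M9 the lowest, a library where 27.8% of the 43 *Lrp5* counts is expected from background. The log2 fold change was 0.29 (SE 0.34, 95% interval -0.50 to 1.09, edgeR adjusted p = 0.608), and it was -0.08 without M624 and M664.

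*Lrp6* (ENSMUSG00000030201, chr6:134446476-134566965, minus strand) was set by 1 tumor. M408 had 14846 counts, or 2719 CPM. The other *Myc*-knockin tumors had 140.3 CPM in M351, 116 in M9, 97.0 in M624 and 59.8 in M664. The p53-driven tumors had 211 CPM in F187, 179 in F325, 188 in F331 and 253 in F368. M408 thus stood 10.7-fold above the next highest tumor, F368, and the other 4 *Myc*-knockin tumors were all below the 4 p53-driven tumors. Among 9539 genes with a mean of at least 10 CPM, 22 (0.231%) had a tumor at least 10-fold above the next, and *Lrp6* ranked 21st. The log2 fold change was 1.59 over all 9 tumors (SE 1.08, edgeR adjusted p = 0.369) and -0.996 without M408 (SE 0.31, edgeR adjusted p = 0.0773), when the *Myc*-knockin mean was 103 ± 33.9 CPM (SD, n = 4) against 208 ± 33.0 CPM (SD, n = 4). Without F187, M351, M408 and M9 it was -1.38 (edgeR adjusted p = 0.0299). This compares only M624 and M664 with 3 p53-driven tumors, so genotype and the differing RNA content of that pair cannot be told apart.

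The genes around *Lrp6* were also high in M408. The measure below was chosen after the values were seen. A gene counts when M408 is at least 3-fold above the highest of the other 8 tumors, which holds for 82 of the 15365 genes tested (0.534%). Within 1 Mb of *Lrp6*, 3 of 18 other tested genes met it. *Borcs5*, which encodes a subunit of the lysosome-positioning complex BORC, was at 77.3 CPM in M408 and at 4.41 to 12.9 CPM elsewhere. *Dusp16*, a MAP kinase phosphatase, was at 232 CPM against 16.4 to 32.0 CPM, and *Gprc5a* at 17.2 CPM against 0.432 to 4.78 CPM. In all, M408 was the highest tumor for 8 of these 18 genes. *Mansc1* was 3.17-fold above the median of the other tumors but 1.06-fold above the highest of them. *Crebl2*, at 3.11 CPM, was below the lowest of the other 8 (3.28 CPM). Over the whole of chromosome 6, 21 of the 82 genes (25.6%) lay there, against 5.45% of the genes tested. All 21 lay between *Mkrn2* and *4732416N19Rik*, from 115601902 to 148215731 (mm10), a stretch of 32.6 Mb with 250 tested genes. The ends of this stretch were set by the first and last of the 21 genes. By this definition the 588 tested genes on the rest of the chromosome hold none. The highest of the 21 genes in M408 after *Lrp6* was *Etnk1*, an ethanolamine kinase, at 1209 CPM against 36.5 to 73.9 CPM elsewhere, 8.72 Mb from *Lrp6*. *St8sia1*, which makes the ganglioside GD3, was at 330.8 CPM against 0 to 14.2 CPM, and *Tead4*, a transcription factor of the Hippo pathway, at 123 CPM against 2.25 to 13.0 CPM. By the same measure the other tumors had 0 to 7 such genes on chromosome 6, among them 7 of 39 (17.9%) in M664, 2 of 10 in M351 and 1 of 4 in F187. The map of the chromosome in M408 shows these genes scattered among others at the level of the remaining tumors. Some genes just outside the stretch missed the measure but were also above the median of the other tumors. Among these were *Rad18* and *Setd5*, at -21.83 and -21.37 Mb from *Lrp6*, with log2 ratios of 3.26 and 2.46. *Srgap3*, between them, had 0.55. Copy number was not measured here.

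**Figure D2:**
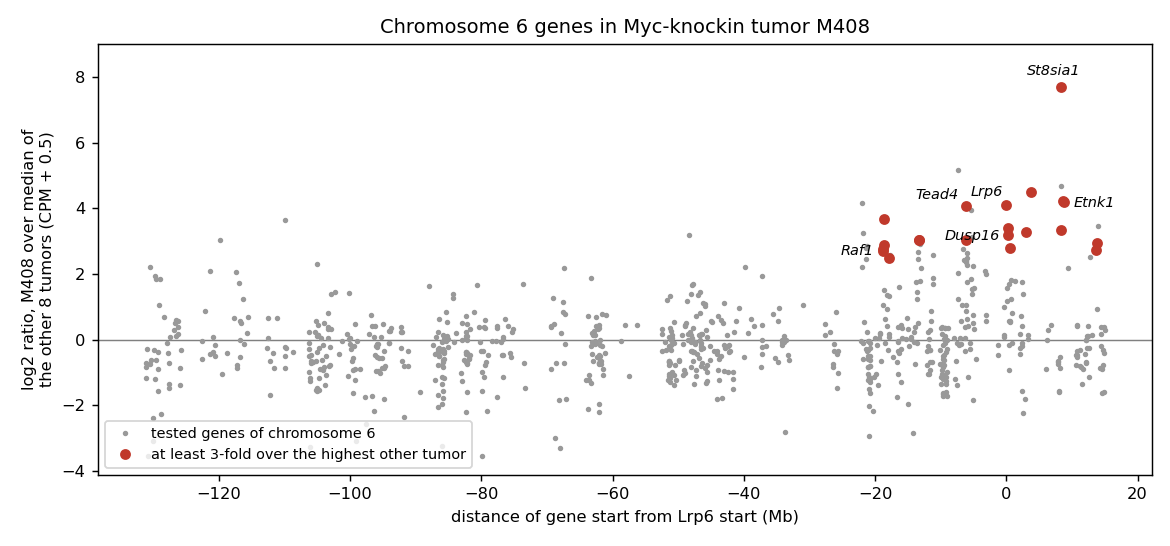
Chromosome 6 genes in tumor M408: the y axis is the log2 ratio of CPM in M408 over the median of the other 8 tumors (0.5 CPM added to both), the x axis the distance of the gene start from that of *Lrp6* in Mb. Red points are the 21 genes at least 3-fold above the highest other tumor, the first and last of which lie 32.6 Mb apart. Grey points are the other tested genes of the chromosome.

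Measured against each other within a tumor, the co-receptors changed order. Per kilobase of exon, *Lrp6* exceeded *Lrp5* in 7 of the 9 tumors. The log2 ratio of *Lrp5* to *Lrp6* was -1.51 in F187, -1.31 in F325, -0.74 in F331 and -1.71 in F368. It was -0.69 in M351, -1.26 in M9 and -4.89 in M408, but 0.64 in M624 and 1.18 in M664. Only M624 and M664 had more *Lrp5* than *Lrp6* per length. The ratio needs no scaling between libraries, and it was not tested.

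Of the secreted inhibitors, *Dkk1* (ENSMUSG00000024868, chr19:30545863-30549665), which blocks LRP5 and LRP6, rested on few counts. It was at 12.6 CPM in F187, 1.56 in F325, 1.73 in F331 and 4.50 in F368. In the *Myc*-knockin tumors it was at 12.9 CPM in M351, 10.1 in M408, 2.39 in M9, 0.191 in M624 and 4.27 in M664. The range within each genotype covered most of the range over all tumors, and 3 of the 4 libraries with satellite reads were the 3 highest. The exception, M9, had 3 *Dkk1* counts, which is the floor, and 99.3% of them is expected from background. The log2 fold change was 0.25, with a 95% interval from -2.07 to 2.58 (edgeR adjusted p = 0.900).

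*Sfrp1* and *Sfrp2* encode secreted proteins with a Frizzled-like domain that bind Wnts. *Sfrp1* (ENSMUSG00000031548, chr8:23411502-23449632) was at 1.58 CPM in F187, 22.7 in F325, 4.50 in F331 and 3.04 in F368. Its *Myc*-knockin values were 11.1 CPM in M351, 6.96 in M408, 17.5 in M9, 5.91 in M624 and 5.18 in M664. The *Myc*-knockin tumors lay above all p53-driven tumors but F325, the highest of the 9, so that the log2 fold change was 0.15 (SE 0.72, edgeR adjusted p = 0.922) with F325 and 1.55 without it (edgeR adjusted p = 0.206). The value of F187 rests on 4 counts, 77.1% of them expected from background.

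*Sfrp2* (ENSMUSG00000027996, chr3:83766321-83774316) also had a single high tumor, this time a *Myc*-knockin one. M351 had 67.1 CPM, and M408 had 7.33, M9 5.58, M624 10.8 and M664 15.7 CPM. The p53-driven tumors had 10.3 CPM in F187, 17.03 in F325, 22.8 in F331 and 12.04 in F368. M351 was 2.94-fold above the next highest tumor. Its log2 fold change was 0.42 with M351 (SE 0.67, edgeR adjusted p = 0.727) and -0.62 without it (edgeR adjusted p = 0.372). Per kilobase of exon, *Sfrp2* exceeded *Sfrp1* in every tumor but M9. That exception rests on few counts. In M9 *Sfrp2* had 7 counts, 37.8% of them expected from background, and *Sfrp1* had 22, with 24.4% expected. The log2 ratio of *Sfrp1* to *Sfrp2* had a median of -3.19 in the p53-driven tumors (range -3.72 to -0.61) and of -1.90 in the *Myc*-knockin tumors (range -3.62 to 0.63). The antisense gene *Gm26771* overlaps 16.1% of the *Sfrp2* exon bases, but it had at most 4 counts in any tumor.

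*Axin2* (ENSMUSG00000000142, chr11:108920349-108950783), the feedback scaffold of the destruction complex and the most used readout of β-catenin signaling, had nearly equal means in the genotypes. It was at 6.71 CPM in F187, 6.69 in F325, 23.7 in F331 and 9.36 in F368. In the *Myc*-knockin tumors it was at 28.3 CPM in M351, 4.21 in M408, 24.7 in M9, 5.49 in M624 and 2.85 in M664. M351, M9 and F331 formed a high group from both genotypes, and the other 6 tumors had less than 10 CPM. The means were 13.1 ± 12.3 CPM (SD, n = 5) and 11.6 ± 8.15 CPM (SD, n = 4), with a log2 fold change of 0.08 (SE 0.73, 95% interval -1.65 to 1.81, edgeR adjusted p = 0.961). Background is expected to give 22.8% of the 17 counts in F187, 21.8% of the 31 in M9 and 13.4% of the 46 in M351. The interval is wide on both sides of 0, so at this spread a change of nearly 3-fold in either direction was not excluded.

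*Lef1* (ENSMUSG00000027985, chr3:131110471-131224356), a DNA-binding partner of β-catenin, set M624 and M664 apart. These tumors had 2.82 and 2.68 CPM, the lowest of all. The other *Myc*-knockin tumors had 19.1 CPM in M351, 22.7 in M408 and 35.1 in M9. The p53-driven tumors had 11.1 CPM in F187, 11.4 in F325, 23.4 in F331 and 6.20 in F368. The *Myc*-knockin values therefore reached both below and above the p53-driven values, and the log2 fold change of 0.27 (SE 0.74, edgeR adjusted p = 0.848) averaged over them. It was 1.00 without M624 and M664 (edgeR adjusted p = 0.194) and -2.31 without F187, M351, M408 and M9 (edgeR adjusted p = 0.0445). *Lef1* and *Lrp6* were the 2 of the 10 genes that edgeR called in that last comparison, in which 27.9% of all genes were called. Background is expected to give 24.5% of the *Lef1* counts in M9, 31.6% in M351 and 22.1% in F187.

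*Tcf7* (ENSMUSG00000000782, chr11:52252371-52283014), which encodes TCF1, was the highest of the 10 genes per kilobase of exon in every tumor but M408. Its levels were 43.4 CPM in F187, 127 in F325, 62.9 in F331 and 97.3 in F368. In the *Myc*-knockin tumors they were 208 CPM in M351, 69.0 in M408, 85.2 in M9, 39.3 in M624 and 305 in M664. M664 and M351 stood above all p53-driven tumors, M624 below them. *Tcf7* had a log2 fold change of 0.77 (SE 0.58, 95% interval -0.59 to 2.13, edgeR adjusted p = 0.421), and it was positive in all 19 alternative fits, from 0.31 to 1.08. *Tcf7* is also known as a T cell factor, so T cell markers are given beside it. Of 8 such markers, 2 passed the filter and 0 were called, and their summed level was 4.42 to 55.0 CPM in the *Myc*-knockin tumors and 5.84 to 25.5 CPM in the p53-driven tumors. The highest sum was that of M9, where *Tcf7* was at 85.2 CPM. In M664, where *Tcf7* had 7065 counts, *Cd3e* had 5, *Cd3d* 2 and *Cd3g* 0 counts. In M351, where *Tcf7* had 338 counts, they had 10, 6 and 10 counts. At 0 were *Cd3g* in M664, *Cd3g*, *Cd247* and *Cd8a* in M624, and *Trac* in M9. The log2 ratio of *Lef1* to *Tcf7* per kilobase was negative in all 9 tumors, from -8.58 in M664 to -3.03 in M9, with medians of -4.47 in the p53-driven and -5.19 in the *Myc*-knockin tumors.

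**Figure D3:**
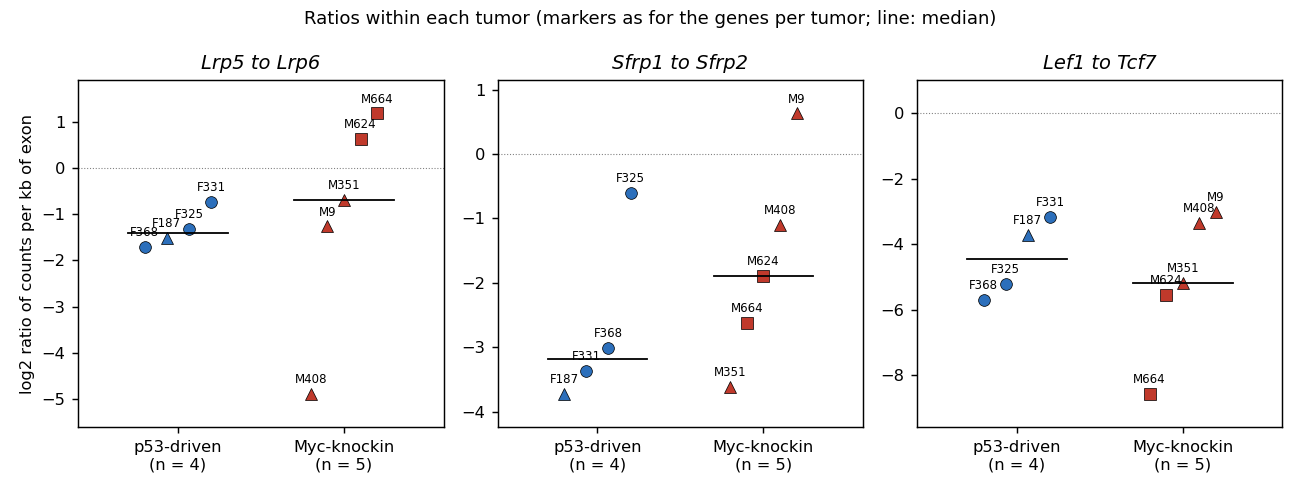
Log2 ratios of counts per kilobase of exon for *Lrp5* to *Lrp6*, *Sfrp1* to *Sfrp2* and *Lef1* to *Tcf7* in each tumor, with p53-driven tumors in blue, *Myc*-knockin tumors in red and the group median as a line. *Lrp5* to *Lrp6* is above 0 only in M624 and M664 and lowest in M408, and *Lef1* to *Tcf7* is lowest in M664.

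Ordered by the median over 9 tumors of CPM per kilobase of exon, *Tcf7* came first at 32.5, then *Lrp6* at 13.1, *Fzd1* at 6.52, *Lrp5* at 6.38, *Sfrp2* at 5.59, *Wnt5a* at 4.95, *Dkk1* at 1.76, *Sfrp1* at 1.35, *Lef1* at 1.30 and *Axin2* at 1.22. No neighbors in this order differed by more than the larger of their SDs over the tumors. The coefficient of variation was 194% for *Lrp6*, 101% for *Sfrp2*, 88.9% for *Dkk1*, and 60.6% to 81.4% for the others except *Lrp5*.

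The extremes were spread over several tumors. The lowest of the 9 tumors was M624 or M664 for 7 of the 10 genes, against 34.3% of all genes tested, and the highest was one of them for 2 of the 10, against 34.8%. The 4 libraries with satellite reads held the lowest tumor for 3 of the 10 genes and the highest for 6. Over all genes tested, the lowest tumor was F187 for 7.59%, M351 for 10.5%, M408 for 9.84% and M9 for 13.9%. The highest was F187 for 4.58%, M351 for 6.93%, M408 for 9.42% and M9 for 17.1%. Of these libraries, M351 was the highest for 4 of the 10 genes, against its 6.93% of all genes. Without M624 and M664, edgeR called none of the 10 genes and 4.61% of all genes. Leaving out this pair moved the median log2 fold change of the 10 genes from 0.28 to 0.72 and that of all genes from 0.14 to 0.08. Leaving out the 4 libraries with satellite reads moved it to -0.90, with 0.00 over all genes. Only *Wnt5a* (negative) and *Tcf7* (positive) kept 1 direction in all 3 comparisons, as the plot by choice of libraries shows. Subtracting the expected background reads changed no direction among the 10 genes.

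**Figure D4:**
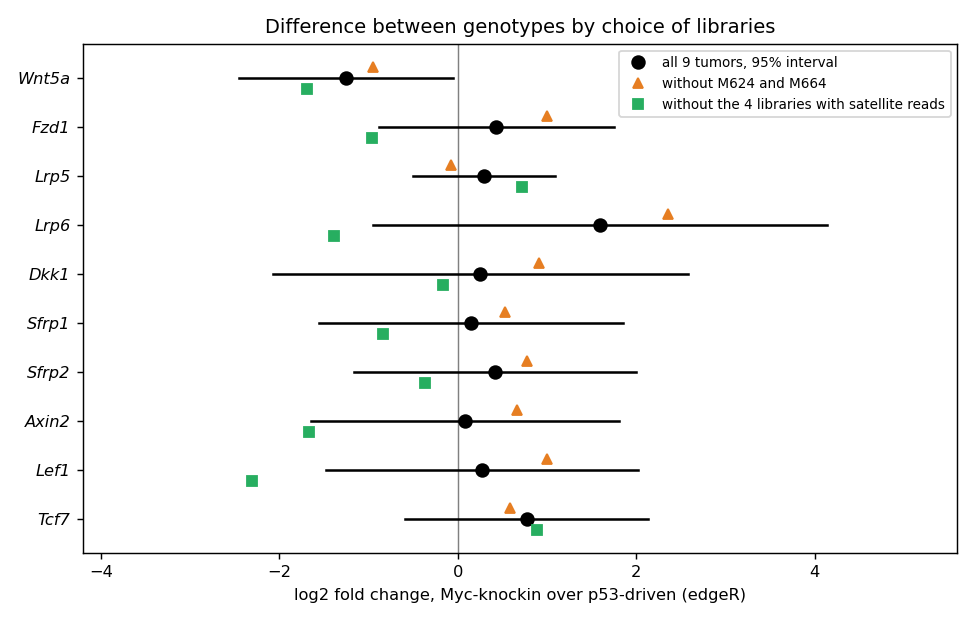
Log2 fold change, *Myc*-knockin over p53-driven, of the 10 genes by edgeR: black points with bars are all 9 tumors with the 95% interval, orange triangles leave out M624 and M664, and green squares leave out F187, M351, M408 and M9. For 8 of the 10 genes triangles and squares lie on opposite sides of 0, and only *Wnt5a* and *Tcf7* keep 1 side.

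The wider pathway was read from 10 lists by role that hold 110 genes, of which 90 were tested and 3 (3.33%) were called, against 5.27% of all genes. Of the ligands, 10 of 19 were tested and 1 was called higher. *Wnt7b*, a ligand known in bone formation, was at 26.5 CPM in M351, 28.02 in M408, 8.76 in M9, 15.1 in M624 and 14.6 in M664. In the p53-driven tumors it was at 5.92 CPM in F187, 2.02 in F325, 0.778 in F331 and 2.07 in F368. All *Myc*-knockin tumors lay above all p53-driven tumors, although 54.7% of the 11 counts in M9 is expected from background. The log2 fold change was 2.90 (SE 0.60, edgeR adjusted p = 0.0287), and it was called without M624 and M664, without the libraries with satellite reads, and in 5 of the 9 fits that left out 1 tumor (adjusted p 0.0208 to 0.120). *Wnt4*, another ligand, was fully apart in the other direction, at 1.47 to 19.9 CPM in the *Myc*-knockin and 21.7 to 64.6 CPM in the p53-driven tumors, and missed the threshold (log2 fold change -2.27, SE 0.61, edgeR adjusted p = 0.0545).

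Of 16 feedback and direct targets tested, 2 were called, both lower, and 8 had a positive fold change. *Ccn4*, a matricellular protein with the older name *Wisp1* from its induction by Wnt1, was at 102 CPM in M351, 64.3 in M408, 136 in M9, 20.1 in M624 and 114 in M664. The p53-driven tumors had 290 CPM in F187, 466 in F325, 536 in F331 and 669 in F368. The groups did not overlap, and the log2 fold change was -2.49 (SE 0.50, edgeR adjusted p = 0.0267). It was called in 6 of the 9 fits that left out 1 tumor and missed the threshold without F325, F331 or F368. *Tnfrsf19*, a TNF receptor family member, was at 15.6 to 48.6 CPM in the *Myc*-knockin and 41.5 to 189 CPM in the p53-driven tumors. Its log2 fold change was -1.91 (SE 0.48, edgeR adjusted p = 0.0463), and only 2 of the 9 fits that left out 1 tumor called it (adjusted p 0.0344 to 0.169). The summed stromal, osteoblast, osteoclast and macrophage markers given above were lower in the *Myc*-knockin tumors as well, and their part in these differences was not tested.

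No gene of the other 8 lists was called by edgeR, although DESeq2 called 16 and limma-voom 9 of the 90 genes of all lists. Groups that did not overlap were found for 5 of the 90 genes, against 13.0% of all genes. Of 9 Frizzled genes, 6 had a positive fold change, and *Fzd5* alone had groups that did not overlap, at 7.09 to 71.7 CPM against 91.6 to 115 CPM (log2 fold change -1.71, SE 0.54, edgeR adjusted p = 0.0795). Of 15 tested genes of the Dishevelled proteins and the destruction complex, *Csnk1e*, a casein kinase, did not overlap either, at 29.5 to 91.1 CPM in the *Myc*-knockin and 23.4 to 29.2 CPM in the p53-driven tumors (log2 fold change 1.14, edgeR adjusted p = 0.0630). *Ctnnb1*, the β-catenin gene, had a log2 fold change of 0.13 (SE 0.42, edgeR adjusted p = 0.876). *Tcf7l2*, the other main TCF gene, was at 22.1 to 37.2 CPM in the p53-driven tumors and, as for *Lef1*, lowest in M624 (13.7 CPM) and M664 (17.01 CPM), with 31.9 to 38.3 CPM in M351, M408 and M9. *Sost*, the osteocyte inhibitor of LRP5 and LRP6, did not pass the filter, with at most 16 counts in 8 tumors and 180 in M664. The plot of the lists by role shows all 90 genes.

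**Figure D5:**
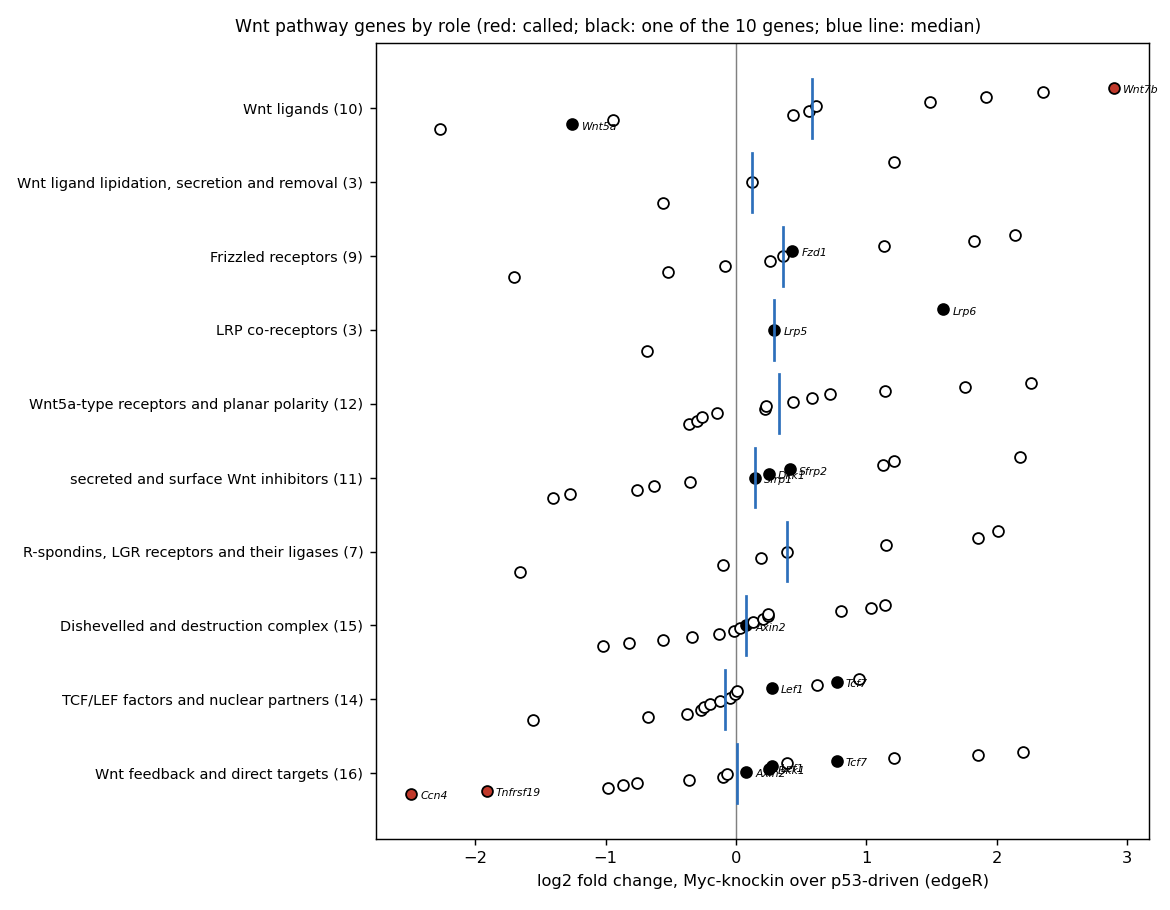
Log2 fold change, *Myc*-knockin over p53-driven (edgeR), of the tested genes of 10 Wnt pathway lists, with the number of tested genes in brackets, and some genes stand in more than 1 list. Red points are called (*Wnt7b*, *Ccn4* and *Tnfrsf19*), black points are among the 10 genes described, and the blue line is the median of the list, from -0.09 to 0.59.

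To set sequence beside these values, RefSeq promoters (GRCm38.p6, 250 bases before to 50 after a start, 300 in all) were searched on both strands for CTTTGA, the core bound by TCF/LEF factors, and for CACGTG, the E-box bound by MYC with MAX. The letters do not overlap between the motifs. Of the 10 genes, 6 matched by symbol with 10 promoters, and *Wnt5a*, *Lrp5*, *Lrp6* and *Sfrp1* did not. CTTTGA was found in 3 of these 10 promoters, those of *Fzd1*, *Dkk1* and 1 of 4 of *Lef1*, against 5257 of all 32851 promoters. CACGTG was found in 1, the same *Lef1* promoter, against 7.15% of them. The starts of these *Lef1* and *Dkk1* promoters lie inside the gene spans given above. So does the *Dkk1* match at -117. The matches are shown because *Lef1* and *Dkk1* are feedback targets of the pathway, with capitals marking the motif as read on the strand of the gene.
*Lef1* (chr3:131156102-131156131, plus strand): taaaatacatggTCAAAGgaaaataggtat
*Lef1* (chr3:131156162-131156191, plus strand): cattgtctgttcTCAAAGtcaggtcttgca
*Lef1*, E-box (chr3:131156203-131156232, plus strand): gccttcatctctCACGTGaccgagattgca
*Dkk1* (chr19:30549653-30549682, minus strand): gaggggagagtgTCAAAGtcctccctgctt
*Dkk1* (chr19:30549596-30549625, minus strand): ctcctcccaaagCTTTGAaatcccatcccg
*Fzd1* (chr5:4758437-4758466, minus strand): cgcagcacTCAAAGtagcagtctgtgacca
The motif begins at -180, -120 and -79 from the start in *Lef1*, at -174 and -117 in *Dkk1* and at -242 in *Fzd1*. TCAAAG is the same core on the opposite strand. The windows of *Axin2*, *Tcf7* and *Sfrp2* hold neither string of letters. A match is a string in a window, and no binding was measured here.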

How the data were processed

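Whole-tumor RNA-Seq of 4 p53-driven and 5 *Myc*-knockin OS tumors was analyzed. Per the study's methods, libraries were made with a stranded kit after oligo-dT enrichment; the authors trimmed paired-end reads with Trim Galore, aligned the pairs to mm10 by STAR and counted by featureCounts, and the deposited values are raw counts. The strand setting is not given in the sources used here, so reads of a gene and an antisense overlap may not be separable.

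Counts were tested with edgeR 4.0.16 (R 4.3.3) by glmQLFit and glmQLFTest without covariates, after TMM scaling and filterByExpr (minimum count 10), which kept 15365 genes; the study's DESeq2 thresholds were used, with Benjamini-Hochberg adjustment over all genes tested. DESeq2 1.42.0 and limma 3.58.1 (voom) were alternatives, with other scalings and filters, satellite genes removed, background subtracted and libraries left out. The fit was tested on simulated counts. Exon lengths and positions are from GENCODE vM21 (mm10). Background reads came from the counts per kilobase of 1505 chemosensory receptor genes.

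Depth was 2716322 to 17073285 counts; floors and intervals of counts cover counting error only. Other genes named are those called in a pathway list and others that a result turned on; *Wnt4*, *Csnk1e* and the chromosome 6 genes were named after their values were seen. The 10 genes, the lists and the doubted libraries were chosen with earlier results of these data known.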

Additional observations from a re-analysis of the deposited data

Results flagged for a closer look

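In 5 of 20 sets examined (10 genes in each genotype), 1 tumor lay farther from its group than Dixon's 95% limit allows. For normally distributed values chance flags about 1 in 20 such sets, but CPM values are skewed to the right, the sets share the same 9 tumors, and over all genes tested 2918 of 30730 sets were beyond the limit, 88.8% of these by a high tumor. *Lrp6* in M408 was at 2719 CPM, with the next *Myc*-knockin tumor at 140.3 CPM. *Sfrp2* in M351 was at 67.1 CPM, with the next *Myc*-knockin tumor at 15.7 CPM. *Sfrp1* in F325 was at 22.7 CPM, with the next p53-driven tumor at 4.50 CPM. F331 was far above the other p53-driven tumors in both *Lrp5* (80.4 CPM, next 55.3 CPM) and *Axin2* (23.7 CPM, next 9.36 CPM). No cause was tested for any of them.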

How the results depend on the processing

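No paired analysis was possible because the columns carry no replicate numbers. The call on the 10 genes held at 0 in all alternatives but that without the 4 libraries with satellite reads, where 2 (*Lrp6* and *Lef1*, both lower) were called, and the cause was not tested. With at least 10 counts required in every tumor, only 7 of the 10 genes were tested. For the 90 pathway genes of the main fit the 3 calls became 0 with library size alone, 16 with DESeq2 and 9 with limma-voom. Other fits tested other numbers of pathway genes, with calls for 5 of 87 with background subtracted and 15 of 91 without the 4 libraries. With 1 tumor left out, 84 to 95 were tested and 0 to 8 called (0 without F325, F331 or F368, and 8 without M9). For all genes the 809 calls became 136 with library size alone, 2646 with DESeq2, 1663 with limma-voom, 494 of 47719 genes with at least 1 count, 1316 of the 9283 genes whose every tumor has 10 counts or more, 4595 without the 4 libraries, and 5 to 1588 with 1 tumor left out.

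The log2 fold changes of *Wnt5a* and *Tcf7* kept their sign in every alternative. The following changed sign, none with a call except as stated. Without the 4 libraries with satellite reads they were -0.97 for *Fzd1*, -1.38 for *Lrp6* (called), -0.17 for *Dkk1*, -0.84 for *Sfrp1*, -0.37 for *Sfrp2*, -1.67 for *Axin2* and -2.31 for *Lef1* (called). With library size alone they were -0.31 for *Sfrp1*, -0.63 for *Axin2* and -0.28 for *Lef1*, and with all genes of at least 1 count -0.0924 for *Sfrp1* and -0.20 for *Axin2*. *Lrp5* was -0.00602 and *Lrp6* -0.0771 with limma-voom, and *Lrp5* was -0.0824 without M624 and M664. With 1 tumor left out, *Lrp6* ranged from -0.996 (without M408) to 1.95, *Dkk1* from -0.20 to 1.15, *Sfrp1* from -0.21 to 1.55, *Sfrp2* from -0.62 (without M351) to 0.67, *Axin2* from -0.45 to 0.72 and *Lef1* from -0.19 to 0.73. *Axin2* was -0.15 without F187, -0.11 without F325, -0.06 without F368 and -0.29 without M9. *Sfrp1* was -0.04 without F331, -0.17 without F368 and -0.19 without M9. *Dkk1* was -0.08 without F325, -0.07 without F331 and -0.06 without M408. *Lef1* was -0.01 without F368. Scaling moved the median of all genes from 0.03 (library size alone) to 0.24 (upper quartile). Depth limits *Dkk1* and *Sfrp1* most.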
